A study of Solanum lycopersicum with 3 samples.

Results

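The flavonoid and anthocyanin pathway was followed in young leaf primordia of tomato (Solanum lycopersicum) carrying the slmp mutation, through 10 loci recorded by locus identifier as CHS1, CHS2, CHI-like, F3H, F3'H, F3'5'H, DFR, ANS, AN1 and ANT1. Of these 10, 8 were analysed, among 21717 loci measured in all. CHI-like (Solyc05g010310) and ANT1 (Solyc10g086260) were not analysed here. The 3 libraries form a single group: slmp-1 plants in a chamber with 18 h of light and 6 h of dark, mock-treated with 1 spray of water 1 h before harvest, each library being a pool of 15 primordia of leaf 5 at stage P5 (the plastochron count of leaf age). No wild-type or hormone-treated library enters the comparisons, so every difference described is between replicates of the mutant. Nothing in the labels says that the pools came from separate sets of plants, and the spread between libraries may be partly technical.

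Flavonoids are phenolic compounds made from p-coumaroyl-CoA, the end product of general phenylpropanoid metabolism. Chalcone synthase opens the pathway, and the early enzymes lead to dihydroflavonols, from which either flavonols or anthocyanins are made. The late enzymes dihydroflavonol reductase and anthocyanidin synthase commit carbon to anthocyanins, the purple pigments of tomato stems and leaf veins. In nightshades a complex of a MYB protein, a bHLH protein and a WD40 protein switches on mainly the late genes.

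The deposited values take the form of read counts divided by 1 factor per library, and are called scaled values or units here. The libraries were 3′-end libraries, in which each transcript gives about 1 fragment whatever its length, so levels of different genes were compared without division by gene length. Whether each annotated locus covers the 3′ end of its transcript was not tested. Reads with no feature held 21.2% to 22.7% of the table's total. Comparisons of level between genes are uncertain to that extent. Taking each whole step of the scale as 1 read, the libraries held 2499843 to 2746410 at the loci. In replicates 1, 2 and 3, 3 steps were worth 2.84, 3.12 and 3.23 scaled units. Of 6 loci recorded as young leaf markers, 5 reached at least 10 scaled units in every library, beside 68.7% of all loci, so this count does little to check the tissue. The remaining locus had a mean of 6.47. Of 3 loci recorded for ripe fruit, 2 were analysed, with means of 57.3 and 0.948, and none of the flower or pollen loci were analysed here. The mutated gene was left out, as its locus is not named in the files or in the reference table.

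At the head of the pathway, the chalcone synthase paralogues had similar mean levels but differed across libraries. Chalcone synthase joins p-coumaroyl-CoA with malonyl-CoA to give the chalcone skeleton. CHS1 (Solyc09g091510, on chromosome 9 by its identifier) had 515.6, 1031 and 399.7 scaled units in replicates 1, 2 and 3, a mean of 648.9 ± 336.2 (SD, n = 3). Replicate 2 was high and stood apart from the other libraries. CHS2 (Solyc05g053550, chromosome 5) had 660.6, 584.7 and 684.2 scaled units, a mean of 643.2 ± 52.0, and was lowest in the library where CHS1 was highest. The ratio of CHS1 to CHS2 was 0.780, 1.76 and 0.584 in the 3 libraries, so CHS1 exceeded its paralogue in replicate 2 alone. On the scale of log2(value + 1), CHS1 minus CHS2 averaged -0.10 ± 0.83 (SD, n = 3), and the direction was not resolved. Together both paralogues gave 1176, 1616 and 1084 scaled units. Paralogues can share reads, and how the counting treated reads that match both is not given in the sources used here.

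F3H (Solyc02g083860, chromosome 2), flavanone 3-hydroxylase, makes dihydroflavonols from flavanones. It had 233.2, 337.5 and 113.1 scaled units in replicates 1, 2 and 3, a mean of 227.9 ± 112.3 (SD, n = 3). Replicate 3 was lowest and replicate 2 highest, which is the order of CHS1. Exact Poisson intervals at 95%, which cover counting error only, ran from 92.5 to 137.0 in replicate 3 and from 204.9 to 264.2 in replicate 1, and did not overlap.

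The B-ring hydroxylases set how many hydroxyl groups the pigment carries: flavonoid 3'-hydroxylase leads to cyanidin- and quercetin-type compounds, and flavonoid 3',5'-hydroxylase to delphinidin-type anthocyanins. F3'H (Solyc03g115220, chromosome 3) had the highest mean of the analysed members, with 838.8, 838.1 and 662.7 scaled units in replicates 1, 2 and 3 and a mean of 779.9 ± 101.5 (SD, n = 3). F3'5'H (Solyc11g066580, chromosome 11) had 128.9, 166.2 and 31.2 scaled units, a mean of 108.8 ± 69.7. Both were lowest in replicate 3, F3'H by a small margin and F3'5'H by a wide one. The ratio of F3'H to F3'5'H was 6.51, 5.04 and 21.2 in replicates 1, 2 and 3, and F3'H minus F3'5'H averaged 3.13 ± 1.09 on the log2(value + 1) scale (SD, n = 3), positive in 3 of 3 libraries. The locus next to F3'H, Solyc03g115200, had 97.4%, 95.3% and 94.3% of the F3'H value in the 3 libraries. Whether these neighbours share reads was not tested, and the level of F3'H is uncertain to that extent.

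DFR and ANS, the late enzymes, had lower levels than the early ones. Dihydroflavonol 4-reductase turns dihydroflavonols into leucoanthocyanidins. DFR (Solyc02g085020, chromosome 2) had 103.3, 143.3 and 61.4 scaled units in replicates 1, 2 and 3, a mean of 102.7 ± 41.0 (SD, n = 3). Anthocyanidin synthase makes the first coloured compounds of the anthocyanin branch. ANS (Solyc08g080040, chromosome 8) had 101.4, 137.1 and 23.7 scaled units, a mean of 87.4 ± 58.0. The late genes shared the order of the libraries, with replicate 2 highest and replicate 3 lowest. They matched each other in replicates 1 and 2, where the ratio of DFR to ANS was 1.02 and 1.05, and parted in replicate 3, where it was 2.59. The locus after DFR, Solyc02g085025, had 57.8%, 63.8% and 54.4% of the DFR value and the same order of libraries. Whether it shares reads with DFR was not tested.

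AN1 (Solyc09g065100, chromosome 9), the bHLH partner in the MYB-bHLH-WD40 complex, was the lowest of the analysed members. It had 14.2, 20.8 and 3.23 scaled units in replicates 1, 2 and 3, which are 15, 20 and 3 steps, and a mean of 12.7 ± 8.86 (SD, n = 3). The libraries again stood in the order of the late genes. At 3 steps the value in replicate 3 has a counting interval from 0.667 to 9.45 scaled units, which lies below that of replicate 2 (12.7 to 32.1) but overlaps that of replicate 1 (7.96 to 23.4). The ratio of replicate 2 to replicate 3 was 6.43, with an exact interval from 1.91 to 33.8.

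**Figure D1:**
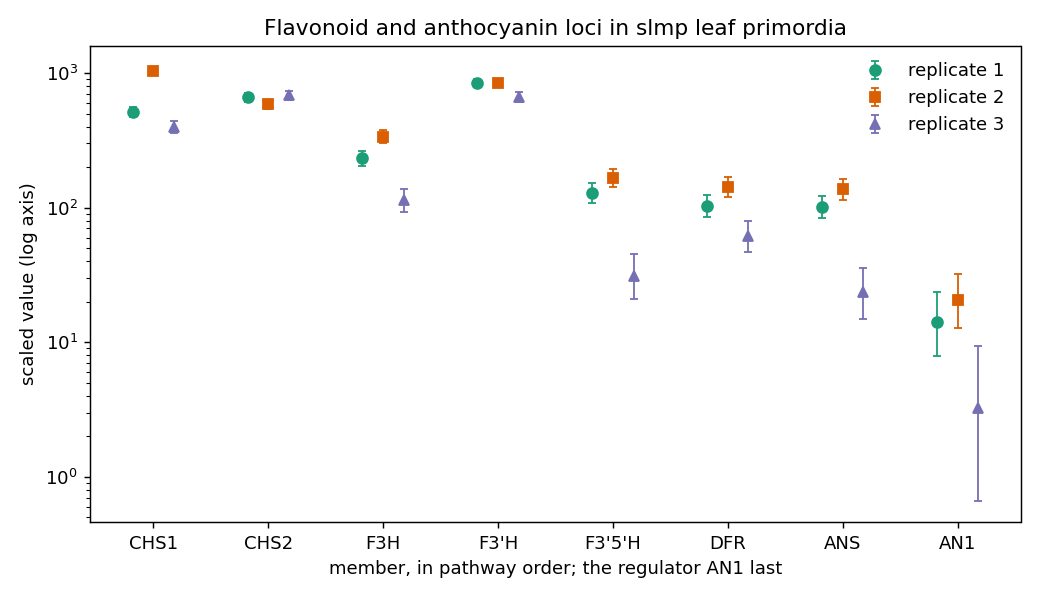
Scaled value on a log axis of each analysed member in the 3 slmp libraries, with exact 95% Poisson intervals for counting error as bars. CHS2 and F3'H differ least between libraries. CHS1, F3H, F3'5'H, DFR, ANS and AN1 are lowest in replicate 3, at 399.7, 113.1, 31.2, 61.4, 23.7 and 3.23 scaled units. F3'H is also lowest there, by a smaller margin, at 662.7.

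In order of mean level the members stood F3'H, CHS1, CHS2, F3H, F3'5'H, DFR, ANS and AN1. Between neighbours in this order, the step from CHS2 to F3H (643.2 against 227.9), from F3H to F3'5'H (227.9 against 108.8) and from ANS to AN1 (87.4 against 12.7) exceeded the larger of the 2 SDs, and the upper gene was higher in 3 of 3 libraries. F3'H and CHS1, CHS1 and CHS2, F3'5'H and DFR, and DFR and ANS did not differ beyond their spread, although DFR was above ANS in 3 of 3 libraries. At least 10 scaled units in every library were reached by 7 of the 8, AN1 being the exception, beside 68.7% of all loci. The median member had a mean of 168.4, beside 33.3 over all loci. The summed level of the 8 took 0.0997%, 0.122% and 0.0735% of the signal at loci in replicates 1, 2 and 3.

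Early steps (CHS1, CHS2 and F3H) were more abundant than late steps (DFR and ANS) in every library, and the gap was widest in replicate 3. The mean of log2(value + 1) was 8.75, 9.20 and 8.30 for the early steps in replicates 1, 2 and 3, and 6.69, 7.14 and 5.30 for the late steps. The difference, early minus late, was 2.06 in replicate 1, 2.06 in replicate 2 and 3.01 in replicate 3, a mean of 2.38 ± 0.55 (SD, n = 3). With a single group of 3 libraries no test of this difference was made. It also assumes that each locus covers the 3′ end of its transcript, which was not tested. The ratio of F3H to DFR, the step that enters the late branch, was 2.26, 2.36 and 1.84 in the 3 libraries, which varied less than the ratio of CHS1 to F3H, at 2.21, 3.06 and 3.53. The ratio of F3'5'H to DFR, by contrast, was 1.25 and 1.16 in replicates 1 and 2 and 0.509 in replicate 3.

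Most members differed jointly between the libraries. In bulk primordia, fewer cells of a type and less RNA per cell cannot be told apart. The order replicate 2 above replicate 1 above replicate 3 held for 6 of the 8 members, namely CHS1, F3H, F3'5'H, DFR, ANS and AN1. This order was chosen for counting after the values were seen, and it held at 20.6% of all loci. F3'H was also lowest in replicate 3 but by a smaller margin, and CHS2 went the other way. Of the 8 members, 7 had a mean of at least 20 scaled units, AN1 being below. Among those 7, 5 differed by over 2-fold between their highest and lowest library (CHS1, F3H, F3'5'H, DFR and ANS), beside 14.6% of the 13579 loci with such a mean. Over 2-fold lower in replicate 3 than in both other libraries were F3H, F3'5'H and ANS, 3 of the 7, beside 1.41% of those loci. None of the 7 was over 2-fold higher in replicate 3, beside 1.44% of the loci. With no filter on low values AN1 joined them, giving 4 of 8 beside 4.66% of all loci.

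Counting error alone was also set beside the differences. Separate libraries of well-counted genes can differ by more than that error, so the following counts depend on depth. They do not test whether the members differ jointly. The pair of replicates 2 and 3 was also not planned for comparison. The counting interval of replicate 2 lay wholly above that of replicate 3 at 7 of the 8 members, all but CHS2, beside 7.92% of all loci. Such a share grows with depth: it was 11.9% of loci with a mean of at least 20, beside 6 of 7 members, and 22.5% of loci with a mean of at least 100, beside 5 of 6 members. At 6 of the 8 the intervals of both replicates 1 and 2 lay above that of replicate 3, beside 3.57% of all loci, and this held for 6 of 7 members with a mean of at least 20, beside 5.58% of such loci. Among all 8, the exceptions were CHS2 and AN1. The spread, as the SD of log2(value + 1) across replicates, had a median of 0.75 among the 8 members, beside 0.34 over all loci and 0.27 over loci with a mean of at least 20. It was widest for ANS at 1.33, F3'5'H at 1.28 and AN1 at 1.24, and narrowest for CHS2 at 0.12 and F3'H at 0.20.

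Along the pathway, the size of the difference between replicates 3 and 2 followed no simple early-to-late order. This pair of libraries was not planned for comparison. It joins the library where 6 of the 8 members were highest with the one where 7 were lowest. The negative sign in most members was thus partly set by the choice. Replicate 3 minus replicate 2, on the log2(value + 1) scale, was -1.37 for CHS1, 0.23 for CHS2, -1.57 for F3H and -0.34 for F3'H. It was -2.37 for F3'5'H, -1.21 for DFR, -2.48 for ANS and -2.36 for AN1. The middle 50% of loci with a mean of at least 20 lay between -0.36 and 0.37. CHS2 and F3'H were inside that range, and the other 6 were below it. ANS, F3'5'H and AN1 had the lowest values, and DFR, although a late gene, was nearer to the early genes CHS1 and F3H. In linear terms replicate 2 exceeded replicate 3 by 5.78-fold for ANS (exact interval 3.66 to 9.54), 5.32-fold for F3'5'H (3.56 to 8.20) and 2.33-fold for DFR (1.70 to 3.24). Among the early genes the ratio was 2.98 for F3H (2.39 to 3.75) and 2.58 for CHS1 (2.29 to 2.91). CHS2 went the other way, at 0.855 (0.762 to 0.959). The intervals of ANS and F3'5'H did not overlap those of DFR, CHS1 and CHS2, but both overlapped that of F3H. The wide interval of AN1 overlapped those of DFR, CHS1 and F3H. Overlap of such separate intervals does not show that the ratios are alike. The ratios of these members were not compared directly with those of the early genes.

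**Figure D2:**
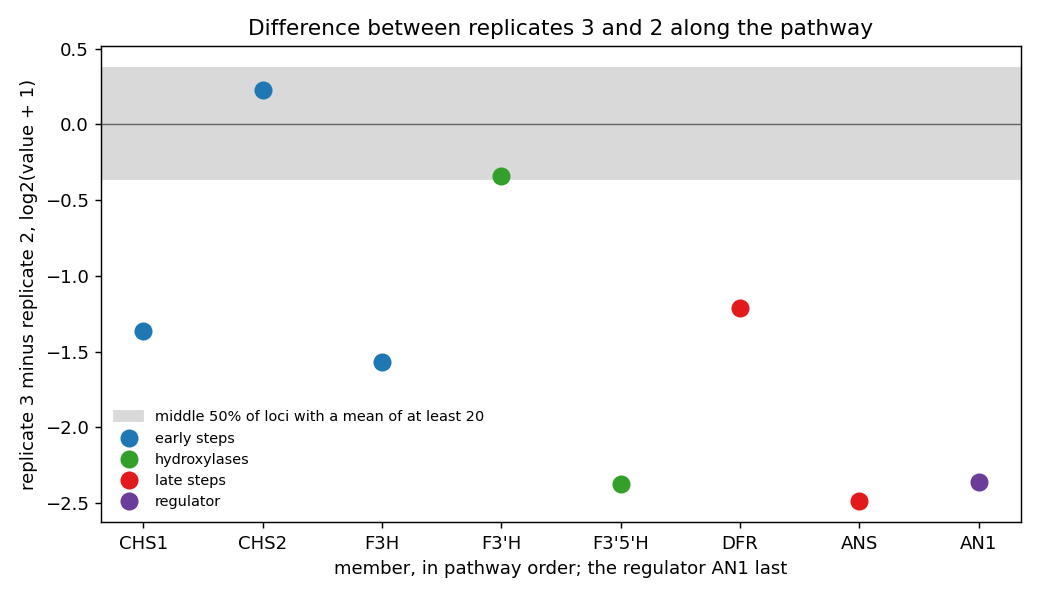
Difference between replicates 3 and 2 in log2(value + 1) for each analysed member, in pathway order with the regulator AN1 last; the grey band holds the middle 50% of loci with a mean of at least 20, from -0.36 to 0.37. ANS, F3'5'H and AN1 lie lowest, at -2.48, -2.37 and -2.36, while CHS2 and F3'H lie inside the band. The pair of libraries was not planned for comparison.

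The contrast between replicates 2 and 1 was smaller. CHS1 had the largest difference there, with replicate 2 minus replicate 1 at 1.00 on the log2(value + 1) scale, and F3H, F3'5'H, DFR, ANS and AN1 had 0.53, 0.36, 0.47, 0.43 and 0.52. CHS2 had -0.18 and F3'H -0.0011. Measured from the average of each gene across libraries, the median deviation of the 8 members was 0.14, 0.74 and -0.76 in replicates 1, 2 and 3, beside 0.03, 0.00 and 0.01 over all loci. Without replicate 3, 0 of the 7 members with a mean of at least 20 differed by over 2-fold on that scale, beside 4.72% of loci. Without replicate 2 the count was 3, beside 5.51% of loci, and without replicate 1 it was 5, beside 10.7%. CHS1 sat at the threshold between replicates 1 and 2, at 0.9988 on the log2(value + 1) scale. In scaled values (515.60 and 1031.33) it was just over 2-fold. The median deviation of replicate 2 was 0.22 without replicate 3, and that of replicate 3 was -0.44 without replicate 2.

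Other loci of the pathway were taken from a list of 14 recorded from general knowledge for further flavonoid enzymes, sugar and acyl attachment, pigment transport and regulators. No source used pairs these identifiers with names, so they are given as a list. Of the 14, 13 were analysed and 9 were detected in every library, a share close to the 68.7% of all loci. Their median mean level was 95.6, beside 33.3 over all loci. The order replicate 2 above replicate 1 above replicate 3 held for 7 of the 13, beside the 20.6% of all loci given above. Among the 9 with a mean of at least 20, replicate 3 lay over 2-fold below both other libraries at 5, beside 1.41% of loci, and over 2-fold above them at 0, beside 1.44%. Those 5 spanned 91.0 to 251.2 scaled units in replicate 1, 116.3 to 469.4 in replicate 2 and 32.3 to 100.2 in replicate 3. For them, replicate 3 minus replicate 2 ranged from -2.64 to -1.82 on the log2(value + 1) scale. As these 5 were picked for a low replicate 3, that library being lowest and the size of this difference were set by the choice. Replicate 2 also lay above replicate 1 at all 5, which the choice did not fix. How often this holds at other loci picked in the same way was not tested. The remaining loci of this list were mixed, up to 1.64 on the same scale. That highest value came from a locus with a mean of 6.57, near the floor. Among the remaining loci with a mean of at least 20 the range was -1.09 to 0.92.

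The entry to the phenylpropanoid pathway, which supplies p-coumaroyl-CoA also for lignin and other phenolics, was examined in the same way. Of 10 loci recorded for it, 9 were analysed, and the order replicate 2 above replicate 1 above replicate 3 held for 1, beside 20.6% of all loci. Among the 6 with a mean of at least 20, replicate 3 lay over 2-fold below both other libraries at 0, beside 1.41% of loci, and over 2-fold above them at 2, beside 1.44%. A count of 0 among 6 is no departure from the share over all loci. The summed level of the 9 loci was 1393, 1436 and 2637 scaled units in replicates 1, 2 and 3. A single locus, with 724.1, 751.9 and 1901 scaled units, carried the higher sum in replicate 3, and the other 8 summed to 669.1, 684.4 and 735.9. The difference between the lists was not tested.

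**Figure D3:**
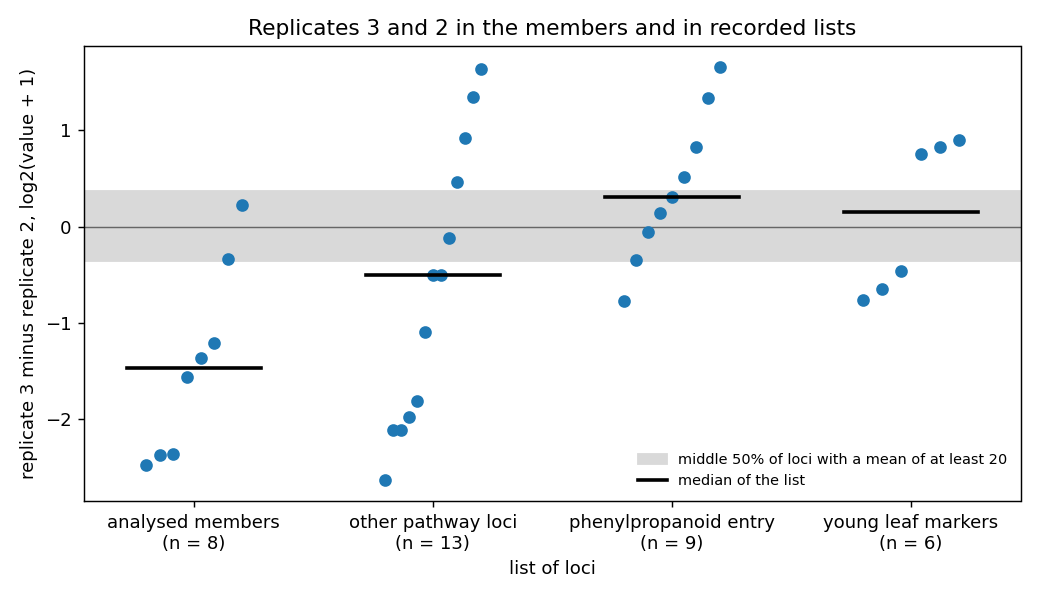
Difference between replicates 3 and 2 in log2(value + 1) for single loci (points) of the analysed members and of 3 recorded lists, with the median of each list as a bar and the middle 50% of loci with a mean of at least 20 in grey. The medians are -1.47 for the members, -0.51 for the other pathway loci, 0.31 for the phenylpropanoid entry and 0.15 for the young leaf markers. The pair of libraries was not planned, and the negative sign in the members was partly set by that choice. The members and lists also hold loci with a mean below 20.

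Markers of the tissue also differed between the libraries. The summed level of the 6 young leaf loci was 9050, 7055 and 11112 scaled units in the 3 libraries in turn. The 2 highest loci carried this sum, with 8278, 5892 and 10321, lowest in replicate 2 and highest in replicate 3. The other 4 summed to 772.4, 1163 and 790.9 and were together highest in replicate 2, so the markers did not move as 1 group. The ripe fruit loci summed to 55.0, 50.9 and 69.0. Total steps at the loci were lowest in replicate 3, and the share of reads of low alignment quality was also lowest there, at 21.4%, against 25.6% in replicate 1 and 22.9% in replicate 2. The part of these differences in the result was not tested.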

How the data were processed

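Per the labels' protocols, RNA was extracted from pooled primordia and 3′-end libraries were made with a QuantSeq kit. Bowtie2, HTSeq and DESeq2 were used, per the submitters' processing notes; their versions, the genome build, annotation and strand setting are not stated there or in the labels. The deposited table holds 1 signal value per locus and library. Every signal value deposited by the authors was a whole multiple of 1 step per column (0.948, 1.04 and 1.08 in replicates 1, 2 and 3), within 0.001 of a step, and the smallest value above 0 was 2 steps. Because values of 1 step are missing, no count model was fitted; steps served only for exact Poisson and binomial intervals at 95%, which cover counting error, since PCR copies of 1 molecule can be counted more than once. The 3 summary rows of the counting program were left out of all totals, except the table's total behind the shares of reads that these rows hold.

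Spreads and differences use log2(value + 1), which understates differences of low loci. Detection means at least 10 scaled units in every library, and fold counts use loci with a mean of at least 20 unless stated. With 1 group no p-value was computed. The rule for named genes took the 10 members, plus neighbouring loci by identifier. Member names come from the list of loci; RefSeq's table for assembly SLM_r2.1 (41476 genes) holds none of these identifiers, but 7 of the 8 names occur there as symbols on the chromosome that the identifier gives. Members and lists were chosen with earlier results of these data known. Alternatives varied scaling, pseudocount, filters, fold and left out each replicate. Python 3.11.15, numpy 2.4.6, pandas 2.3.3, SciPy 1.17.1 and matplotlib 3.10.9 were used.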

Additional observations from a re-analysis of the deposited data

Results flagged for a closer look

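Part of the table lies outside the loci and enters no comparison. Taking the lowest library for each class apart, reads with no feature were 21.2% of the table's total and those of low alignment quality 21.4%, both in replicate 3. The ambiguous ones were 2.43%, in replicate 1. Dixon's criterion for an outlying sample was not applied to groups of 3.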

How the results depend on the processing

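Across the settings tried, 109 of 114 recomputed values kept their direction and stayed within the spread or within 1.5 times of a count. Leaving out 1 of 3 libraries always moves a mean by less than its SD. Mean levels and mean differences could therefore fail there only by a change of sign, and for them the count does not measure stability. CHS1 minus CHS2 changed sign without replicate 1 (0.02) and without replicate 3 (0.23), over a range of -0.57 to 0.23, and the median deviation of the members in replicate 1 changed to -0.22 without replicate 3, over a range of -0.22 to 0.44. The deviation ranged from 0.22 to 0.73 in replicate 2 and from -0.73 to -0.44 in replicate 3 when another library was left out. The number of members over 2-fold apart was 5 without replicate 1, 3 without replicate 2 and 0 without replicate 3, so it rests mainly on replicate 3. Without that library CHS1 lay at the threshold, at 0.9988 on the log2(value + 1) scale. Early minus late steps ranged from 2.06 to 2.53 when 1 library was left out. With median-of-ratios scaling F3'H, nearly equal in replicates 1 and 2, joined the order of the libraries, giving 7 of 8. Leaving out CHI-like changed nothing, since it was not analysed. The order of the libraries and the count lower in replicate 3 were chosen after seeing the data, with their alternatives. The contrast of replicates 3 and 2 was not planned either. With 1 group no analysis paired between groups was possible, while the contrasts between genes were taken within each library. Depth limits AN1 above all, at 3 steps in replicate 3.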
